A study of Mus musculus with 8 samples.

Results

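T cell receptor signalling genes are described here, the kinases, adaptors, effectors, calcium and NFAT components and negative regulators that carry or restrain the signal from the T cell receptor. They were chosen by name, from a list of 41 mouse symbols matched by Entrez gene ID. Of these, 40 were in the table of 11723 genes, and all 40 passed the filter on low values. Sla, listed with the negative regulators, was not analysed here.

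When the receptor binds its ligand, the kinase Lck phosphorylates the CD3 and zeta chains, Zap70 docks there, and Zap70 phosphorylates the scaffolds Lat and SLP-76 (the Lcp2 product). Phospholipase C gamma (Plcg1) gathers at the scaffold and makes diacylglycerol, which turns on the Ras and NF-kappaB branches, and inositol trisphosphate, which releases calcium and brings NFAT factors into the nucleus. Csk, phosphatases, ubiquitin ligases of the Cbl family and diacylglycerol kinases hold the pathway down.

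RNA was sequenced from CD8 T cells that were sorted from peripheral lymph nodes of BALB/c mice aged 12 days, either wild type (WT) or lacking interleukin-2 (IL-2-KO), a cytokine that T cells make and respond to and that maintains regulatory T cells. Each group had 4 libraries of total RNA. The WT libraries came from 115000000, 28700000, 1300000 and 1300000 sorted cells of 5, 5, 3 and 2 pooled mice, and the IL-2-KO libraries from 26700000, 42600000, 1100000 and 400000 cells, with no pooling given. Replicates 1 and 2 of each group, with over 20000000 cells, are called large preparations below, and replicates 3 and 4, with under 2000000, small ones. The knockout allele is not named in the labels, and the design text of the series also speaks of spleen and of WT/HET controls, which the sample labels do not. Values are counts relative to library size, scaled by TMM (trimmed mean of M values), and are called CPM below. An error after ± is the SD over the 4 libraries of a group (n = 4).

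Depth ran from 11900000 to 18400000 counts per library, so 1 CPM stood for 11.9 to 18.6 counts. Il2, the targeted gene, was listed at 5.88 ± 0.268 CPM in WT and 6.28 ± 1.92 in IL-2-KO. A single value per gene does not separate an intact from a disrupted transcript, so Il2 does not check the labels. The 6 CD8 T cell markers summed to 4704 to 5584 CPM in WT and 4204 to 5047 in IL-2-KO, and none of the 6 passed the test. IL-2-KO replicate 3 and WT replicate 2 both stood apart by transcripts of other cells. The 6 myeloid markers in the table, of 12 listed, summed to 511 and 143 CPM in these libraries and to 39.4 to 56.9 in the other 6. Cd4, the coreceptor of helper T cells, stood at 45.5 and 38.6 CPM there and at 0.461 to 2.48 elsewhere. The 5 CD4 and regulatory T cell markers summed to 14.1 to 93.1 CPM in WT and 64.9 to 236 in IL-2-KO, and 1 of them, Ctla4, passed as higher in IL-2-KO. Ctla4 carried the higher sums, at 5.79 to 30.8 CPM in WT and 51.5 to 171 in IL-2-KO. Foxp3, the factor that defines regulatory T cells, stood at 3.92 to 4.49 CPM in WT and lower, at 2.69 to 3.56, in IL-2-KO without passing, and Cd4, Cd40lg and Zbtb7b overlapped between the groups. B cell markers (3 of 8 in the table) summed to 15.7 to 26.2 and 12.3 to 36.2 CPM, and NK markers (2 of 5) to 1.33 to 3.36 and 3.52 to 5.55, the NK sums not overlapping and 1 NK gene, Klra7, passing as higher. Sums of plasma cell (2 of 4 in the table), erythroid (3 of 4) and stromal markers (2 of 4) overlapped between the groups. Xbp1 made up most of the plasma cell sum and Pecam1 nearly all of the stromal one, so these sums say little on such cells. The part of other cells in the results below was not tested, and in bulk RNA fewer cells of a type and less RNA per cell cannot be told apart.

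Of the 3 signalling genes that passed the test, Fyn and Dgka have a promoter in the RefSeq table (build GRCm38.p6). They are printed because these genes moved in opposite directions. Capitals mark the core of NFAT sites (GGAAA, or TTTCC on the other strand), the factor at the end of the calcium branch.
Fyn promoter, chr10:39369549-39369798, plus strand: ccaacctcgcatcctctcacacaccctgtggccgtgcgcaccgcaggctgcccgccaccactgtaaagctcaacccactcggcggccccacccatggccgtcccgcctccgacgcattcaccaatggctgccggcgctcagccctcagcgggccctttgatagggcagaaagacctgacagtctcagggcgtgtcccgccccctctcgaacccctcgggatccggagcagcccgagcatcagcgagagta
Dgka promoter, chr10:128745085-128745334, minus strand: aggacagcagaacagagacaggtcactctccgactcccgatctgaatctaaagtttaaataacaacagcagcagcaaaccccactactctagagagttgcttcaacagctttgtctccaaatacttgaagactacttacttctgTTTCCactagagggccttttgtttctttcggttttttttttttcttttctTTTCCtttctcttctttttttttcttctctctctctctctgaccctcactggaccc
The 250 bases before the RefSeq start of Dgka held 2 cores in a window of 41.2% GC, and the window of Fyn held none at 67.2% GC. The gene start given for Fyn below, 39369743, lies inside its window, so the last 56 bases of the window are in the gene by that start. The same core was in 55.6% of 27025 promoters of this length and in 22 of the 34 signalling genes with an entry (64.7%). The forkhead (FOXO) site GTAAACA, or TGTTTAC, was in neither, in 3.09% of all promoters and in 3 of the 34 (8.82%). These matches describe the letters alone.

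The single contrast of the study asks how the sorted cells differ between IL-2-KO and WT mice. Most of the 40 signalling genes, like most genes at large, did not pass the test for a difference between the groups. Of the 40 signalling genes 3 passed (7.5%): Fyn rose, and Pag1 and Dgka, both negative regulators, fell. Over all 11530 genes tested 19.2% passed, 1285 higher (11.1%) and 926 lower (8.03%) (limma on log2(CPM + 0.5), Benjamini-Hochberg adjusted p under 0.05). The median log2 change was -0.03 for the signalling genes and -0.01 for all genes, and 16 signalling genes had a positive and 24 a negative estimate. At an unadjusted limma p under 0.05 there were 9 of 40 signalling genes, against 3836 of all 11530 genes (33.3%).

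The intervals show how large a change these libraries leave room for. The 95% confidence interval lay inside a 1.5-fold change either way for 34 of the 40 genes (85%), against 63.9% of all genes and 80.9% of the 7418 genes in the same range of mean level. It lay inside 1.25-fold for 17 (42.5%, against 22.4% and 33.1%). The 6 genes whose interval reached past 1.5-fold were Grap2, Themis, Malt1, Pag1, Cbl and Dgka. The groups did not overlap for 5 genes, Fyn and Dgkz being higher and Plcg1, Pag1 and Dgka lower in every IL-2-KO library, and over all genes 24.2% did not overlap, 12.9% higher and 11.2% lower.

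**Figure D1:**
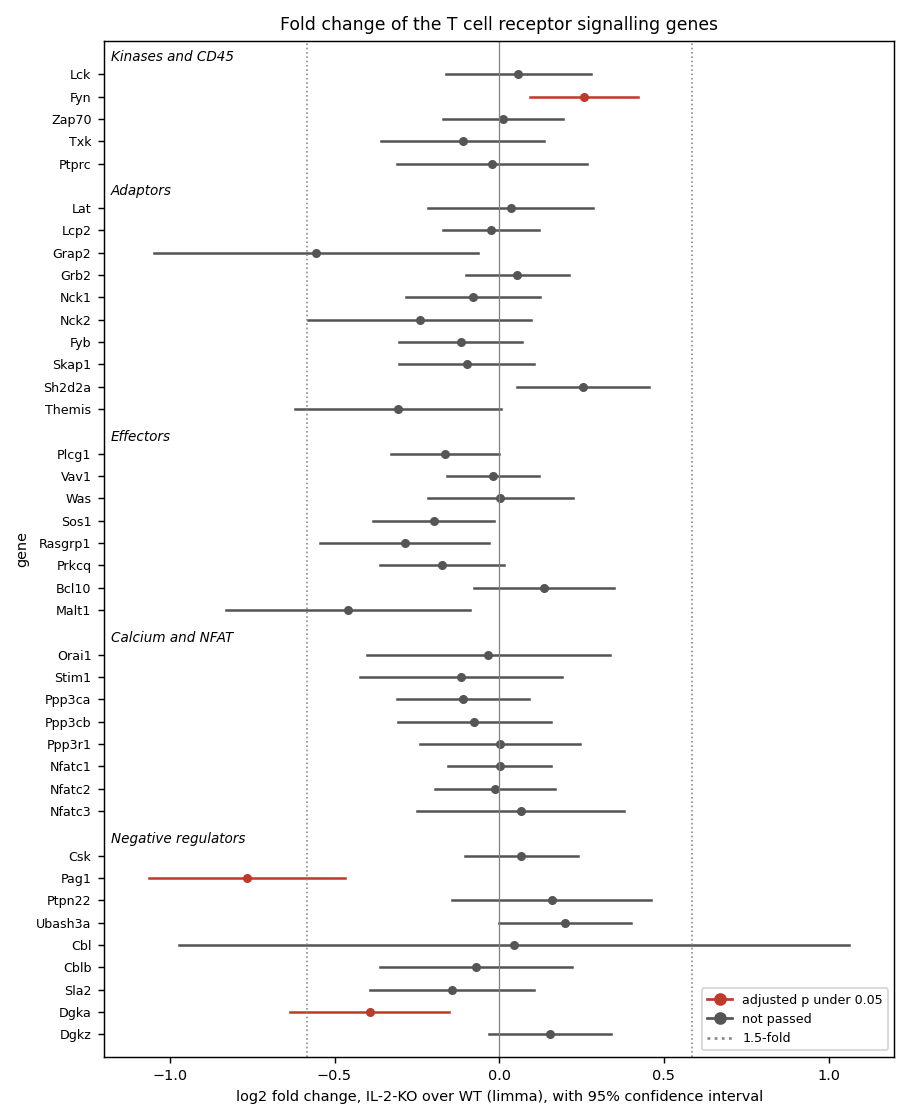
Log2 difference, IL-2-KO minus WT, for the 40 genes, grouped by role, on the x axis. Points are limma estimates on log2(CPM + 0.5), bars are 95% confidence intervals (n = 4 per group), red marks an adjusted p under 0.05 and dotted lines mark 1.5-fold. Pag1 lies farthest from 0 at -0.77, and Cbl has the widest interval, from -0.97 to 1.06.

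Among the 5 receptor-proximal genes, Fyn was the one that passed (20%, against 19.2% of all genes). Fyn is a Src family kinase that acts beside Lck (Entrez 14360, GRCm38 chromosome 10, 39369743 to 39565381, plus strand). It stood at 580.1, 559.7, 593 and 583 CPM in WT replicates 1 to 4 and at 643, 681, 694 and 757 in IL-2-KO replicates 1 to 4. Every IL-2-KO library lay above every WT library. The mean went from 579 ± 14.1 to 694 ± 47.6 CPM, a 1.2-fold rise (log2 0.26, SE 0.07, limma with Benjamini-Hochberg adjustment, adjusted p = 0.0349). The log2 difference was 0.22 within the large preparations (limma adjusted p = 0.614) and 0.30 within the small ones (0.240), with 2 libraries per group in each, and the adjusted p was 0.0549 with cell number as covariate. This call is narrow: it was lost without WT replicate 1, 2, 3 or 4 or IL-2-KO replicate 2, 3 or 4, when the limma adjusted p ran from 0.0610 to 0.0944, and it was 0.0834 without both WT replicate 2 and IL-2-KO replicate 3.

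Lck, the kinase bound to the coreceptor CD8, stood at 1120.4 ± 124 CPM in WT and 1163 ± 70.1 in IL-2-KO (log2 0.06, 95% interval -0.16 to 0.28). Zap70, which binds the phosphorylated receptor chains, stood at 298 ± 22.3 and 300.3 ± 25 CPM (log2 0.01, interval -0.17 to 0.19). Neither passed, and both intervals stay inside 1.25-fold. Ptprc, the CD45 phosphatase that keeps Lck active, stood at 3563 ± 122 and 3536 ± 514 CPM, and Txk, a Tec family kinase, at 303 ± 14.9 and 283 ± 49.0. For Ptprc the group means differ by far less than the SD among IL-2-KO libraries.

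None of the 10 adaptors passed, against 19.2% of all genes, and their median log2 change was -0.09. Lat, the membrane scaffold, stood at 550.1 ± 46.8 CPM in WT and 567 ± 87.2 in IL-2-KO, with an interval of -0.21 to 0.28 on the log2 scale. Lcp2, which encodes SLP-76, stood at 364 ± 17.9 and 358 ± 11.3 CPM, with an interval of -0.17 to 0.12 on the log2 scale. The scaffold pair that Zap70 phosphorylates thus showed no detectable difference here, and both intervals stay inside 1.25-fold. Grb2, the adaptor that carries Sos to Lat, had a log2 difference of 0.06, Nck1 -0.08, Nck2 -0.24, Fyb -0.12 and Skap1 -0.10. Nck1 and Nck2 link the scaffold to actin, and Fyb (ADAP) and Skap1 link it to integrins.

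Grap2 (Gads), which bridges Lat and SLP-76, had the largest estimate among the adaptors. It stood at 496, 377, 525 and 499 CPM in WT and at 246, 416, 225 and 452 in IL-2-KO. IL-2-KO replicates 1 and 3 lay below every WT library, while replicates 2 and 4 lay inside the WT range. The means were 474 ± 66.1 and 335 ± 116 CPM (log2 -0.56, SE 0.22, limma adjusted p = 0.108), and with each library left out in turn the value ran from -0.72 to -0.39 (adjusted p 0.0339 to 0.244), passing only without IL-2-KO replicate 4. Themis, a T lineage adaptor that tunes receptor signals, stood at 245, 257, 312 and 292 CPM and at 181, 243, 196 and 284. The same 2 IL-2-KO libraries were lowest, and the log2 difference was -0.31 (limma adjusted p = 0.158). With each library left out it ran from -0.42 to -0.21 (0.0368 to 0.350), passing only without IL-2-KO replicate 4. Sh2d2a (TSAd), an adaptor of Lck, stood at 277 ± 23.0 and 331 ± 32.6 CPM (log2 0.25, limma adjusted p = 0.0764).

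None of the 8 effectors passed, against 19.2% of all genes. Their median log2 change was -0.17, and 6 of the 8 estimates were negative, as were 51.5% of all genes. At an unadjusted p under 0.05 there were 4 of the 8, against 33.3% of all genes, and no difference between effectors and other genes was tested. Plcg1 stood at 424, 445, 448 and 440.0 CPM in WT and at 417, 411, 351 and 391 in IL-2-KO. The groups did not overlap, but the gap between their nearest libraries was small beside the IL-2-KO spread (log2 -0.16, SE 0.07, limma adjusted p = 0.148). Rasgrp1, the diacylglycerol-dependent activator of Ras, had a log2 difference of -0.29 (limma adjusted p = 0.11). Sos1, the other Ras activator, had -0.20 (0.124), and Prkcq, the protein kinase C of the synapse, had -0.17 (0.180). Vav1, an exchange factor for Rac, stood at 315 ± 15.3 and 310.3 ± 5.2 CPM, and Was, an actin regulator, at 181 ± 20.9 and 180.5 ± 15.5.

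Malt1, a protease that works with Bcl10 on the way to NF-kappaB, had the largest estimate of the effectors. It stood at 250.1, 212, 269.8 and 263 CPM in WT and at 136, 204, 156 and 244 in IL-2-KO. IL-2-KO replicates 1, 2 and 3 lay below every WT library and replicate 4 was inside the WT range. Replicates 1 and 3 were the lowest, as for Grap2, but for Grap2 replicate 2 lay inside the WT range. The log2 difference was -0.46 (SE 0.17, limma adjusted p = 0.0807), and with each library left out it ran from -0.60 to -0.33 (0.0147 to 0.197), passing only without IL-2-KO replicate 4. Bcl10, its partner, stood at 75.7 ± 9.58 and 82.9 ± 4.72 CPM (log2 0.14).

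The group means of the calcium and NFAT genes lay close together, while the IL-2-KO libraries spread more widely than the WT ones, with median SDs of 0.23 and 0.07 on the log2 scale. None of the 8 passed, against 19.2% of all genes, and none had an unadjusted p under 0.05, against 33.3% of all genes. All 8 intervals lay inside 1.5-fold, with estimates from -0.12 to 0.06. Such an interval was found for 63.9% of all genes and for 80.9% of genes in the mean level range of the signalling genes. Whether these 8 genes differ from other genes was not tested. Orai1, the pore of the calcium channel, stood at 22.3 ± 3.25 CPM in WT and 22.0 ± 4.94 in IL-2-KO. Stim1, the calcium sensor that opens it, stood at 119 ± 5.72 and 112 ± 24.0 CPM. The calcineurin subunits Ppp3ca (57.9 ± 6.19 and 53.4 ± 2.79 CPM), Ppp3cb (253 ± 6.34 and 243 ± 37.9) and Ppp3r1 (147 ± 6.00 and 149 ± 24.2) did not pass either. For Ppp3r1, 14.3% of the exon bases are shared with Wdr92 on the same strand, so its value may hold reads of both. Nfatc1 stood at 198 ± 9.15 and 198 ± 13 CPM (interval -0.16 to 0.16) and Nfatc2 at 94.2 ± 3.54 and 93.7 ± 9.58. Nfatc3 stood at 277, 259.9, 300.1 and 311 CPM in WT and at 254, 347, 243 and 377 in IL-2-KO. Its group means were close, but the IL-2-KO libraries fell on both sides of the WT range.

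Of the 9 negative regulators in the table, 2 passed, both lower (22.2%, a share near the 19.2% of all genes). Pag1 is a membrane adaptor that brings Csk to the Src family kinases (Entrez 94212, GRCm38 chromosome 3, 9687479 to 9833684, minus strand). It stood at 221, 193, 234 and 233 CPM in WT and at 120.5, 151, 99.6 and 152 in IL-2-KO. Every IL-2-KO library lay well below every WT library. The mean went from 220.1 ± 19.0 to 131 ± 25.5 CPM, or 0.588 of WT (log2 -0.77, SE 0.13, limma with Benjamini-Hochberg adjustment, adjusted p = 0.00339). It was the one signalling gene with an estimate past 1.5-fold. The call held with each single library left out in turn, and without both WT replicate 2 and IL-2-KO replicate 3 (-0.70, adjusted p = 0.00231). Within the large preparations the log2 difference was -0.61 (limma adjusted p = 0.0909), and within the small ones -0.92 (0.0850).

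Dgka, a diacylglycerol kinase that removes the second messenger of the Ras branch (Entrez 13139, GRCm38 chromosome 10, 128720131 to 128745084, minus strand), stood at 2047, 2184, 2075 and 2096 CPM in WT. In IL-2-KO it stood at 1755, 1501, 1799 and 1379 CPM. The WT libraries lay close together and all IL-2-KO libraries lay below them. The mean went from 2101 ± 59.2 to 1609 ± 202 CPM, or 0.761 of WT (log2 -0.39, SE 0.11, limma adjusted p = 0.0306). The difference was -0.38 within the large preparations (limma adjusted p = 0.485) and -0.40 within the small ones (0.283), and with cell number as covariate the adjusted p was 0.0540, so the call was lost in all 3. The call was lost without WT replicate 1, 2, 3 or 4 or IL-2-KO replicate 2 or 4, when the limma adjusted p ran from 0.051 to 0.084, and held with IL-2-KO replicate 3 and WT replicate 2 both left out (-0.43, 0.0281).

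The other 7 negative regulators did not pass. Csk, the kinase that switches off Lck and Fyn and that Pag1 recruits, stood at 394 ± 22.2 CPM in WT and 414 ± 30.8 in IL-2-KO (log2 0.07, interval -0.11 to 0.24). Ptpn22, a phosphatase that works with Csk, stood at 363 ± 43.5 and 409 ± 78.1 CPM. Ubash3a, another inhibitor of receptor signalling, stood at 113 ± 4.95 and 131 ± 15.3 CPM (log2 0.20, limma adjusted p = 0.153). With each library left out its adjusted p ran from 0.0311 to 0.298, passing only without IL-2-KO replicate 3. Dgkz, the second diacylglycerol kinase, stood at 529, 529, 532 and 525 CPM in WT and at 685, 553, 571 and 555 in IL-2-KO. The IL-2-KO libraries were all higher, replicate 1 far more so, and the difference did not pass (log2 0.15, limma adjusted p = 0.225). Cblb, a ubiquitin ligase, stood at 251 ± 33.5 and 239.6 ± 41.3 CPM, and Sla2, a Src-like adaptor, at 87.1 ± 11.6 and 78.6 ± 8.22. Of the Sla2 exon bases 23.6% lie opposite Rab5if, and whether the counting used strand is not stated in the labels.

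Cbl, the other ubiquitin ligase, was the most uneven gene of the pathway. It stood at 76.4, 66.3, 70.6 and 72.8 CPM in WT and at 29.1, 124, 47.6 and 170.2 in IL-2-KO. IL-2-KO replicates 1 and 3 lay below all WT libraries and replicates 2 and 4 above them, so the log2 difference of 0.05 (SE 0.46, interval -0.97 to 1.06) describes none of them. The SD on the log2 scale was 0.09 in WT and 1.18 in IL-2-KO.

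**Figure D2:**
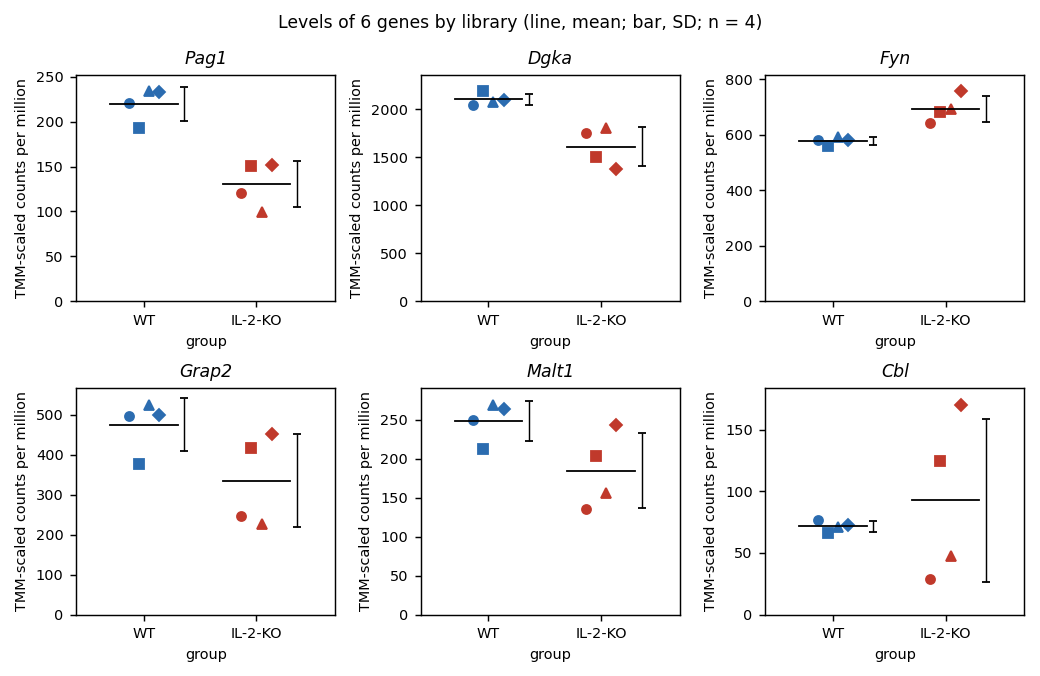
CPM of Pag1, Dgka, Fyn, Grap2, Malt1 and Cbl in each library (y axis, from 0) by group, with circle, square, triangle and diamond for replicates 1 to 4. Horizontal lines are means and bars are SD (n = 4). Pag1, Dgka and Fyn do not overlap between groups, while Cbl runs from 29.1 to 170.2 in IL-2-KO around a WT range of 66.3 to 76.4.

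The IL-2-KO libraries split into replicates 2 and 4 against 1 and 3 across the table: one of these pairs held the 2 highest IL-2-KO values for 28 of the 40 genes (70%) and for 63.4% of all genes. Replicates 2 and 4 did so for 20 of the 40 genes (50%), among them Cbl, Grap2, Malt1, Themis, Pag1, Stim1, Nfatc3 and Ptprc, and for 30.7% of all genes. Replicates 1 and 3 did so for 8 (20%), among them Lat, Zap70, Dgka and Dgkz, and for 32.7% of all genes. Replicates 1 to 4 came from 26700000, 42600000, 1100000 and 400000 cells. Their myeloid marker sums were 56.9, 52.2, 511 and 45.7 CPM, with replicate 3 far above the others and replicate 1 close to replicate 2. The part of cell number and of other cells in the split was not tested. The SD on the log2 scale was larger in IL-2-KO than in WT for 32 of the 40 genes (80.0%) and for 68.2% of all genes, with medians of 0.15 and 0.10 over the 40. With trends of GC content and transcript length removed from each library, an alternative chosen after seeing the data, the SE of the difference was smaller for 35 of the 40 genes and larger for 5, and smaller for 75.3% of all genes. The part of GC content and length in the split was not tested.

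**Figure D3:**
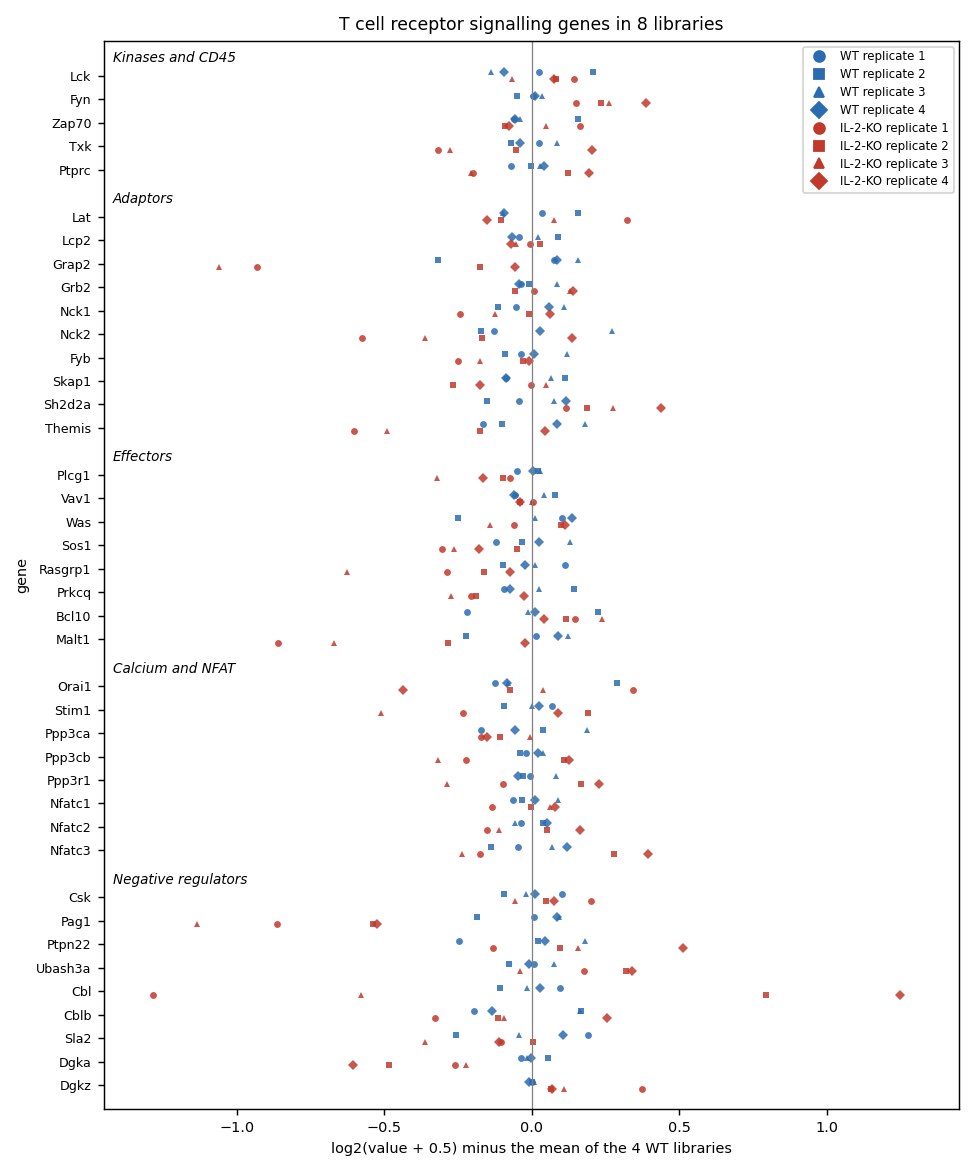
The 40 genes in all 8 libraries: log2(CPM + 0.5) minus the mean of the 4 WT libraries (x axis), by role. Blue is WT and red IL-2-KO, with circle, square, triangle and diamond for replicates 1 to 4. Most red points lie near 0 among the blue ones, and for Cbl, Grap2 and Malt1 the red circle and triangle lie to the left of the red square and diamond.

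Ratios of related genes within a library do not depend on library scaling, and 7 were compared by an exact two-sided permutation test over 70 assignments, whose smallest p is 0.0286. Dgka over Dgkz was 3.86, 4.13, 3.90 and 3.99 in WT and 2.56, 2.71, 3.15 and 2.48 in IL-2-KO. The groups did not overlap, and the mean went from 3.97 to 2.73 (log2 difference -0.55, exact permutation p = 0.0286, the smallest possible, and 0.2 after Benjamini-Hochberg adjustment over the 7). It does not pass the adjustment, which this design cannot reach for a lone ratio. Lck over Fyn went from 1.94 to 1.68 (log2 -0.20, exact permutation p = 0.143, adjusted 0.467) with overlapping groups. The log2 differences were 0.16 for Nck1/Nck2, 0.12 for Cbl/Cblb, -0.03 for Ppp3ca/Ppp3cb, -0.06 for Nfatc1/Nfatc3 and -0.08 for Nfatc2/Nfatc3, with exact permutation p from 0.2 to 0.857.

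**Figure D4:**
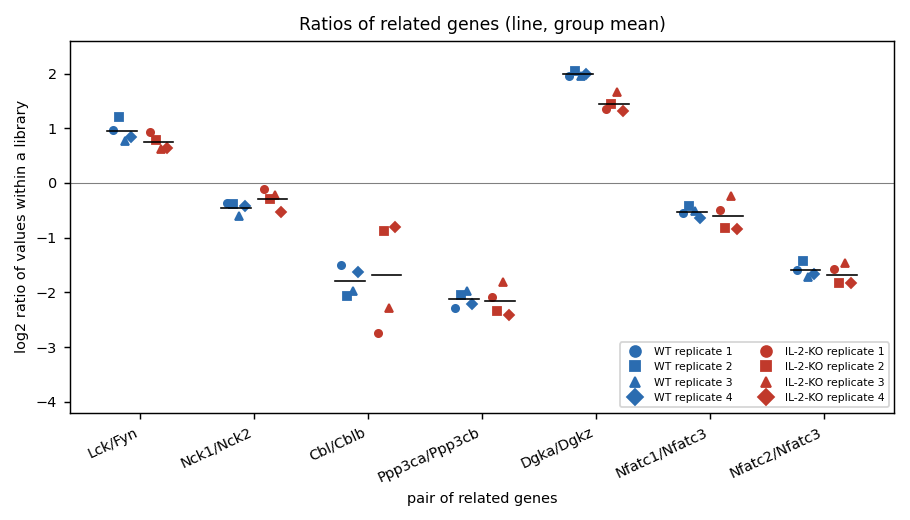
Log2 ratio of 2 related genes within each library (y axis) for 7 pairs (x axis). Points are libraries, blue WT and red IL-2-KO, and lines are group means (n = 4). Dgka/Dgkz is the pair with a gap between the groups, and Cbl/Cblb spreads widely in IL-2-KO.

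Levels per kilobase of exon rank the genes within the pathway. In WT the order was led by Dgka at 741 CPM per kb, Ptprc at 696, Lck at 484, Lat at 445 and Skap1 at 356. In IL-2-KO Ptprc came first at 691 and Dgka second at 568, the other 3 keeping their places. The lowest in both groups was Cbl, at 6.29 in WT and 8.16 in IL-2-KO, with Sos1 (9.83 and 8.56) and Nck1 (10.5 and 9.97) next. Pag1 went from place 31 to 34 as its level fell from 26.7 to 15.8 CPM per kb. The same RefSeq-paired GENCODE exons were used for all libraries, so the ranks assume that these are the ones in use.

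Further genes of the same pathway, kept as a separate list of 82 tested genes, moved about as often as genes at large: 7 rose and 10 fell (20.7%, against 19.2% of all genes), with a median of -0.03. Lax1, an inhibitory membrane adaptor, rose from 276 ± 17.7 to 453 ± 22.4 CPM (log2 0.71, limma adjusted p = 0.000163). Tespa1, which couples the receptor to calcium release, fell from 177 ± 13.5 to 123 ± 9.14 CPM (log2 -0.52, limma adjusted p = 0.00171). Rasgrp2, an activator of the GTPase Rap1, fell from 535 ± 33.4 to 374 ± 38.4 CPM (log2 -0.52, limma adjusted p = 0.00264), and Ikbkb, a kinase of the NF-kappaB branch, from 391 ± 10.1 to 301 ± 15.4 (-0.38, 0.00303). These 4 had the smallest adjusted p of the list by the naming rule, and each still passed with any 1 library left out. The next 3 were named after their values were seen, as relatives of Orai1 and Stim1. Beside the even Orai1 and Stim1, Orai2 fell from 412 ± 49.0 to 298 ± 15.8 CPM, Orai3 rose from 16.9 ± 1.55 to 24.9 ± 1.27, and Stim2 rose from 66.3 ± 6.13 to 84.1 ± 4.66, the last losing its call without WT replicate 1 or 4.

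Of 18 genes that respond to receptor signals, 3 rose and 1 fell (22.2%, against 19.2% of all genes), with a median of -0.07. Irf4, a transcription factor induced with signal strength, rose from 24.1 ± 2.83 to 70.2 ± 6.64 CPM (log2 1.53, limma adjusted p = 5.41e-05). Tnfrsf9 (4-1BB), a costimulatory receptor of activated T cells, rose from 16.8 ± 3.58 to 34.7 ± 4.65 CPM (log2 1.04, limma adjusted p = 0.00142). Xcl1, a chemokine of activated CD8 T cells, rose from 11.9 ± 5.09 to 37.6 ± 23.2 CPM (log2 1.53, limma adjusted p = 0.0229), which no longer passed when WT replicate 3 or 4 or IL-2-KO replicate 1 was left out. Dusp2, a phosphatase of MAP kinases, fell from 402 ± 52.6 to 199 ± 41.2 CPM (log2 -1.03, limma adjusted p = 0.00139). The 4 genes that passed thus include both directions. Nr4a1 (80.2 ± 42.1 and 71.7 ± 23.4 CPM), Egr1 (115 ± 18.9 and 95.3 ± 21.7), Cd69 (221 ± 93.3 and 201 ± 93.6), Cd5 (323 ± 30.5 and 299.5 ± 10.6) and Myc (208 ± 15.7 and 185 ± 22.0) did not pass. Some intervals were wide, as for Nr4a1 (-0.85 to 0.71 on the log2 scale) and Cd69 (-0.88 to 0.58). Of the 18 genes 6 had an interval inside 1.5-fold (33.3%, against 63.9% of all genes). Egr2 (log2 0.40, limma adjusted p = 0.0695), Nr4a2 (0.92, 0.365) and Egr3 (-0.42, 0.118) did not pass either. All these genes that did not pass were named after their values were seen, as common readouts of receptor signalling.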

How the data were processed

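CD8 T cell RNA was sequenced in 4 WT and 4 IL-2-KO libraries. The deposited signal values are TMM-scaled CPM per Entrez gene. The submitters' processing notes name featureCounts, limma 3.34.9, R 3.4.3 and GRCm38 (mm10), and no aligner is given in the sources used here. Low values were whole multiples of 0.01 read, but only 54.6% to 65.0% were whole reads (tolerance 0.001), so no count test was run.

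Genes with at least 1 CPM in at least 4 of 8 libraries (11530 of 11723) were fitted with limma 3.58.1 in R 4.3.3 on log2(value + 0.5), with a mean-variance trend, no covariates and Benjamini-Hochberg adjustment over all of them. Folds on this scale understate changes of low genes. Symbols came from RefSeq, for 11651 IDs. On simulated data for this contrast (11588 genes tested, 200 changed) 95.5% of 1.5-fold changes were recovered and 5.77% of calls were false. The simulation gave all genes the same spread (squared coefficient of variation 0.00802), equal in both groups and independent between genes. In the real libraries the median SD on the log2 scale over all genes was 0.19 in IL-2-KO and 0.13 in WT. Recovery may therefore be lower in the real data, above all for uneven genes. P-values measure the spread between these libraries.

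All genes of the pathway, the genes with the 4 smallest adjusted p of each companion list, and a few stated exceptions are named. The members and lists were chosen with earlier results of these data known. The 8 planned ratios became 7 without Sla. Alternatives covered pseudocount, filter, scaling, weights, cell number, replicate block and left-out libraries. GC content and transcript length were added after seeing the data.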

Additional observations from a re-analysis of the deposited data

Results flagged for a closer look

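There were 80 groups of 4 libraries (40 genes in 2 groups). In 3 of them the gap of a library to its nearest neighbour was large against the range of its group. Chance gives about 1 in 20, so 3 of 80 is no excess. Zap70 stood at 331 CPM in WT replicate 2, with the next library at 289. Orai1 stood at 27.1 CPM in the same library, with the next at 20.9. Dgkz stood at 685 CPM in IL-2-KO replicate 1, with the next at 571, and without that library its log2 difference went from 0.15 to 0.08 (limma adjusted p = 0.458). WT replicate 2 is also the WT library with the highest myeloid marker sum, 143 CPM, and the part of those transcripts in Zap70 and Orai1 was not tested.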

How the results depend on the processing

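Of the 40 genes 3 passed. With array weights 5 did, Malt1 and Ubash3a joining (12.5%, against 37.8% of all genes). With GC content and transcript length trends removed the same 5 did, against 23.2% of all genes. With log10 cell number as covariate 1 did (2.5%, against 16.4%). Within the large or the small preparations alone 0 did, where 2 libraries stand against 2 and 3.33% and 3.82% of all genes passed. Leaving out each library gave 1 to 4 (2.5% to 10%), against 11.1% to 19.1% of all genes. After a median shift 2 passed (5%, against 19.7%), Fyn being lost (limma adjusted p = 0.0571). The 17 further pathway genes became 29 with array weights and 1 within either kind of preparation, and 10 to 18 with a library left out. The 4 responsive genes became 2 and 1 within those preparations, and 3 to 5 with a library left out. Ratios without one library ran from -0.177 to 0.4727 for Cbl/Cblb, -0.1491 to 0.0472 for Ppp3ca/Ppp3cb and -0.1848 to 0.02 for Nfatc1/Nfatc3. Over all genes 1285 rose and 926 fell. Array weights gave 2240 and 2119, the large and small preparations 322 and 62, and 355 and 86, and leaving out WT replicate 3 gave 846 and 439. The cause was not tested.

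Deviations of same-numbered WT and IL-2-KO libraries from their group means had correlations of 0.0842, -0.53, -0.402 and 0.394. The labels give no pairing, and these correlations cannot settle whether there was one, since transcripts of other cells also enter them. With a replicate block 1 of the 40 genes passed (Pag1, limma adjusted p = 0.0155), with Fyn at 0.116 and Dgka at 0.108. That is 2.5%, against 12.1% of all genes, of which 911 rose and 486 fell.

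No called gene of the 40 changed direction under the 22 alternatives. Of the 37 that did not pass, 17 changed sign under at least 1 without a call, and 4 (Grap2, Themis, Malt1 and Ubash3a) passed under at least 1.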
